A study of Mus musculus with 6 samples.

Results

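Acidic organelles keep their lumen acid with the vacuolar ATPase, a rotary proton pump built of a membrane-embedded V0 sector and a cytosolic V1 sector that hydrolyses ATP. The proton gradient and the membrane voltage drive channels and transporters that move calcium, chloride, amino acids, sugars and lipids across the same membrane, and a scaffold on its cytosolic face (Ragulator with the Rag GTPases) recruits the growth kinase complex mTORC1 when nutrients are present. In pancreatic acinar cells these proteins serve lysosomes and endosomes, and the pump also acidifies maturing zymogen granules. The set described here holds 49 genes of this machinery, chosen by name: 17 of the proton pump, 15 channels and transporters, 8 of the nutrient-sensing scaffold and 9 other membrane proteins. Of these, 47 were tested among 11478 tested genes of the table, and Clcn6 and Slc38a9 were not analysed here.

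RNA was sequenced from the pancreas of 3 male OCaR1-/- mice (KO; the labels' genotype field spells it OCar1-/-) and 3 male wild-type mice (WT), all aged 3 weeks and untreated. The strain is C57Bl6/N in the labels' protocol and C56Bl6/N in the strain field of every sample, and the design of the null allele is not given in the sources used here. OCaR1, the product of Tmem63a, is a membrane protein of acidic organelles, which is background knowledge and not part of the labels. The table carries 1 FPKM value (a level of fragments scaled to transcript length and library size) per genotype, so neither values of single mice nor an SD can stand beside any level, and depth is unknown. A gene is called here, and is said to rise or fall, where its q-value in the authors' deposited table is under 0.05.

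Tmem63a stood at 4.91 FPKM in KO and 18.3 FPKM in WT pancreas and was called lower. Of 12 listed acinar markers 9 were tested, with 0 called higher and 2 lower, Ptf1a and Pnlip. Of the 9 ratios 4 lay above 0 and 5 below, and the summed level was 114659 FPKM in KO and 113981 FPKM in WT. Ptf1a, the acinar transcription factor gene, had the lowest level of the 9 (27.2 FPKM in KO and 40.9 FPKM in WT). The lipase gene Pnlip had 7662 FPKM in KO and 15748 FPKM in WT. Marker genes of macrophages, islets and fat cells had higher values in KO. All 17 macrophage markers had ratios above 0, 13 of them called (summed level 153.7 FPKM in KO and 87.8 FPKM in WT). The same held for 12 islet markers, 10 of them called (4123 FPKM in KO and 2570 FPKM in WT), and for 8 fat cell markers, 6 of them called (197 FPKM in KO and 89.3 FPKM in WT). Of 10 stromal markers 4 were called higher and 2 lower. None of these markers was at 0 in either genotype. Nearly all cells use lysosomes, so these shifts can touch the values below, and their part in them was not tested. In bulk tissue, fewer cells of a type and less RNA per cell cannot be told apart.

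Genes of lysosomal membrane proteins are known to carry the motif of the Mitf, Tfeb and Tfe3 factors near their starts, an E-box with the core CACGTG that is often extended to TCACGTGA. Promoter windows from RefSeq (build GRCm38.p6, 250 bases before to 50 after the start) were matched for 40 of the 49 listed genes, 38 of them tested. The letters TCACGTGA, which read the same on both strands and contain CACGTG, occurred in the windows of 8 of these 40 genes (20%), against 1.12% of all 27025 genes with a window. The core CACGTG occurred in 13 of the 40 (32.5%), against 8.09% of all genes. The following 30-base stretches, read on the strand of each gene, show the 8-letter match in capitals in pump, channel, transporter and glycoprotein genes.
Atp6v0d1: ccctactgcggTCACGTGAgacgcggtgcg
Atp6v1a: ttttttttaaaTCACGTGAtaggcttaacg
Mcoln1: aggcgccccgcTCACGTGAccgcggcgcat
Cln3: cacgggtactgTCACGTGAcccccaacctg
Cd164: cgccgggctgcTCACGTGAccggcgcgcgc
The stretch of Atp6v0d1 lies at chr8:105566050-105566079 on the minus strand, with the first motif base at position -4 from the transcript start. That of Atp6v1a lies at chr16:44139373-44139402 on the minus strand (position -132). That of Mcoln1 lies at chr8:3500462-3500491 on the plus strand (-46), that of Cln3 at chr7:126583340-126583369 on the minus strand (-122), and that of Cd164 at chr10:41519401-41519430 on the plus strand (-88). All positions here count from the RefSeq start. In GENCODE release M21, Atp6v1a, Mcoln1 and Cln3 start further upstream (44139705, 3500457 and 126585817), so their stretches lie within the annotated genes. The stretch of Cd164 spans its start there (41519414). In Atp6v0e and Clcn7 the match began just after the start, at positions 3 and 7, and Clcn6 was the remaining gene. A match is a description of these letters and not a binding site.

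The membrane machinery changed little as a whole. The authors' test called 1 of the 47 tested members (2.13%), against 7.54% of all tested genes, and against 7.36% of the 10756 tested genes within the FPKM range of the members. The called member was higher in KO. Of all tested genes, 4.2% were called higher and 3.35% lower. The median log2 ratio of the members, KO over WT, was 0.02, with 25 ratios above 0 and 22 below. The median of all tested genes was -0.03. The members' ratios ran from -0.29 to 0.44, and the middle of their distribution, between the quartiles, from -0.12 to 0.16. For all tested genes the quartiles were -0.19 and 0.16. The summed level of the members was 923 FPKM in KO and 902 FPKM in WT.

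Most of these ratios were of a size at which the test made no calls. Among tested genes of the same FPKM range, none of 3253 genes with a ratio under 0.1 in size was called, and none of 2662 genes between 0.1 and 0.2. These ranges held 18 and 16 of the 47 members. Between 0.2 and 0.3 the test called 0.17% of 1765 genes and none of 10 members. Between 0.3 and 0.4 it called 9.90% of 1121 genes and none of 2 members, and between 0.4 and 0.5 it called 24.5% of 613 genes and the only member there. The smallest called change among genes of this range was 0.29. No gene of this range with a smaller observed ratio was called. The genes were sorted by the observed ratio, which also enters the test. The shares therefore do not measure how large a true shift must be to be called. Of the 10 members between 0.2 and 0.3, 5 had an unadjusted p under 0.05 in the authors' test.

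**Figure D1:**
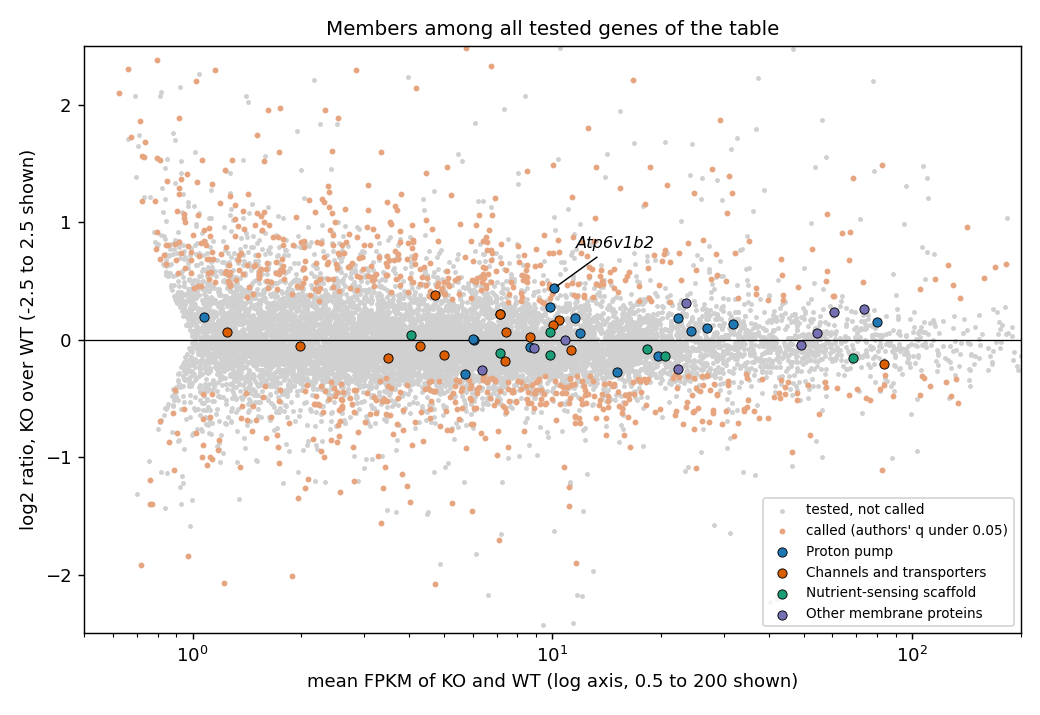
Log2 ratio of FPKM, KO over WT, against the mean FPKM of both genotypes (log axis) for the tested genes within the plotted limits; grey points were not called, light orange points were called at an authors' q under 0.05, and larger points are the 47 members coloured by role. The members lie between -0.29 and 0.44, in the band of genes around 0, and Atp6v1b2 is the called member.

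The proton pump gave the single call, 1 of 17 genes (5.88%), against 7.54% of all tested genes. At an unadjusted p under 0.05 the pump had 2 genes (11.8%), against 17.5% of all tested genes. Atp6v1b2, the nucleotide-binding B subunit of V1 that alternates with the catalytic subunit in the ATPase ring, had 11.6 FPKM in KO and 8.59 FPKM in WT. It rose 1.35-fold (log2 ratio 0.44, q = 0.0472 in the authors' deposited table). Its deposited interval (ENSMUSG00000006273, GRCm38 chromosome 8, 69037711 to 69113711) is longer than the protein-coding gene in GENCODE release M21 (69088646 to 69113711) and also covers Slc18a1, which was not analysed here. The catalytic partner Atp6v1a had 6.02 FPKM in KO and 6.01 FPKM in WT, a log2 ratio of 0.00. The ring genes thus differed in what the test returned, but the difference between their ratios itself was not tested.

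The other V1 genes were not called, so the called share of the 8 V1 genes was 12.5%, against 7.54% of all tested genes. At an unadjusted p under 0.05 the V1 share was 25%, against 17.5% of all tested genes. Atp6v1g1, a peripheral stalk subunit, had 10.8 FPKM in KO and 8.90 FPKM in WT (log2 ratio 0.28, p = 0.0266 and q = 0.192 in the authors' deposited table). Its stalk partner Atp6v1e1 had 24.9 FPKM in KO and 23.7 FPKM in WT. The rotor subunit genes Atp6v1d (12.1 FPKM in KO and 11.7 FPKM in WT) and Atp6v1f (33.3 FPKM in KO and 30.3 FPKM in WT) had ratios of 0.06 and 0.14 on the log2 scale. Atp6v1c1, which couples V1 to V0 and is released when the pump disassembles, had 8.48 FPKM in KO and 8.86 FPKM in WT. Atp6v1h, the regulatory subunit that holds detached V1 inactive, had 13.6 FPKM in KO and 16.5 FPKM in WT (log2 ratio -0.28, q = 0.381 in the authors' deposited table). Its deposited interval is 2.73 times as long as the gene in GENCODE release M21 and also covers the coding gene Rgs20. The 8 V1 genes covered a log2 range from -0.28 to 0.44, with 6 above 0 and 2 below.

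Of the 7 genes of the membrane sector V0, 0 were called by Cuffdiff (0 also at an unadjusted p under 0.05). Over all tested genes these shares were 7.54% and 17.5%. The lowest q of the 7 V0 genes in the authors' deposited table was 0.463. The proteolipid genes, which form the ring that carries protons, were Atp6v0b with 83.9 FPKM in KO and 75.8 FPKM in WT, and Atp6v0c with 7.69 FPKM in KO and 6.61 FPKM in WT. The low level of Atp6v0c is uncertain: 32.5% of the 50-base windows of its longest coding transcript occur unchanged in transcripts of other genes, above all the processed pseudogene Atp6v0c-ps2, and the treatment of such reads is not given in the sources used here. Atp6v0d1, which joins the ring to the rotor, had 18.7 FPKM in KO and 20.7 FPKM in WT. Of the small e subunit, Atp6v0e (23.8 FPKM in KO and 20.9 FPKM in WT) made up 95.4% of the summed level in KO and also 95.4% in WT, and Atp6v0e2 (1.15 FPKM in KO and 1.01 FPKM in WT) the rest.

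The a subunit, which forms the proton path and directs the pump to its compartment, was spread over several genes. Atp6v0a1 had 5.13 FPKM in KO and 6.28 FPKM in WT, which was the lowest ratio of all members (log2 ratio -0.29, q = 0.711 in the authors' deposited table). Atp6v0a2 had 6.04 FPKM in KO and 6.06 FPKM in WT, with 10.8% of its windows shared with an antisense gene. The a3 gene Tcirg1, which is not among the 49 genes, was the most abundant form at 14.7 FPKM in KO and 14.0 FPKM in WT, or 56.8% of the summed level of the 3 forms in KO and 53.2% in WT. The accessory subunit gene Atp6ap1 had 27.8 FPKM in KO and 25.9 FPKM in WT. Atp6ap2, which encodes the prorenin receptor, had 12.3 FPKM in KO and 10.8 FPKM in WT.

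Taken over all 17 pump genes, 12 ratios lay above 0 and 5 below. Their median was 0.10, beside -0.03 for all tested genes, and their summed level was 307 FPKM in KO and 289 FPKM in WT. Levels within the pump differed widely, from 1.15 to 83.9 FPKM in KO and from 1.01 to 75.8 FPKM in WT. By level, Atp6v1b2 ranked 20 of 47 in KO and 30 of 47 in WT.

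**Figure D2:**
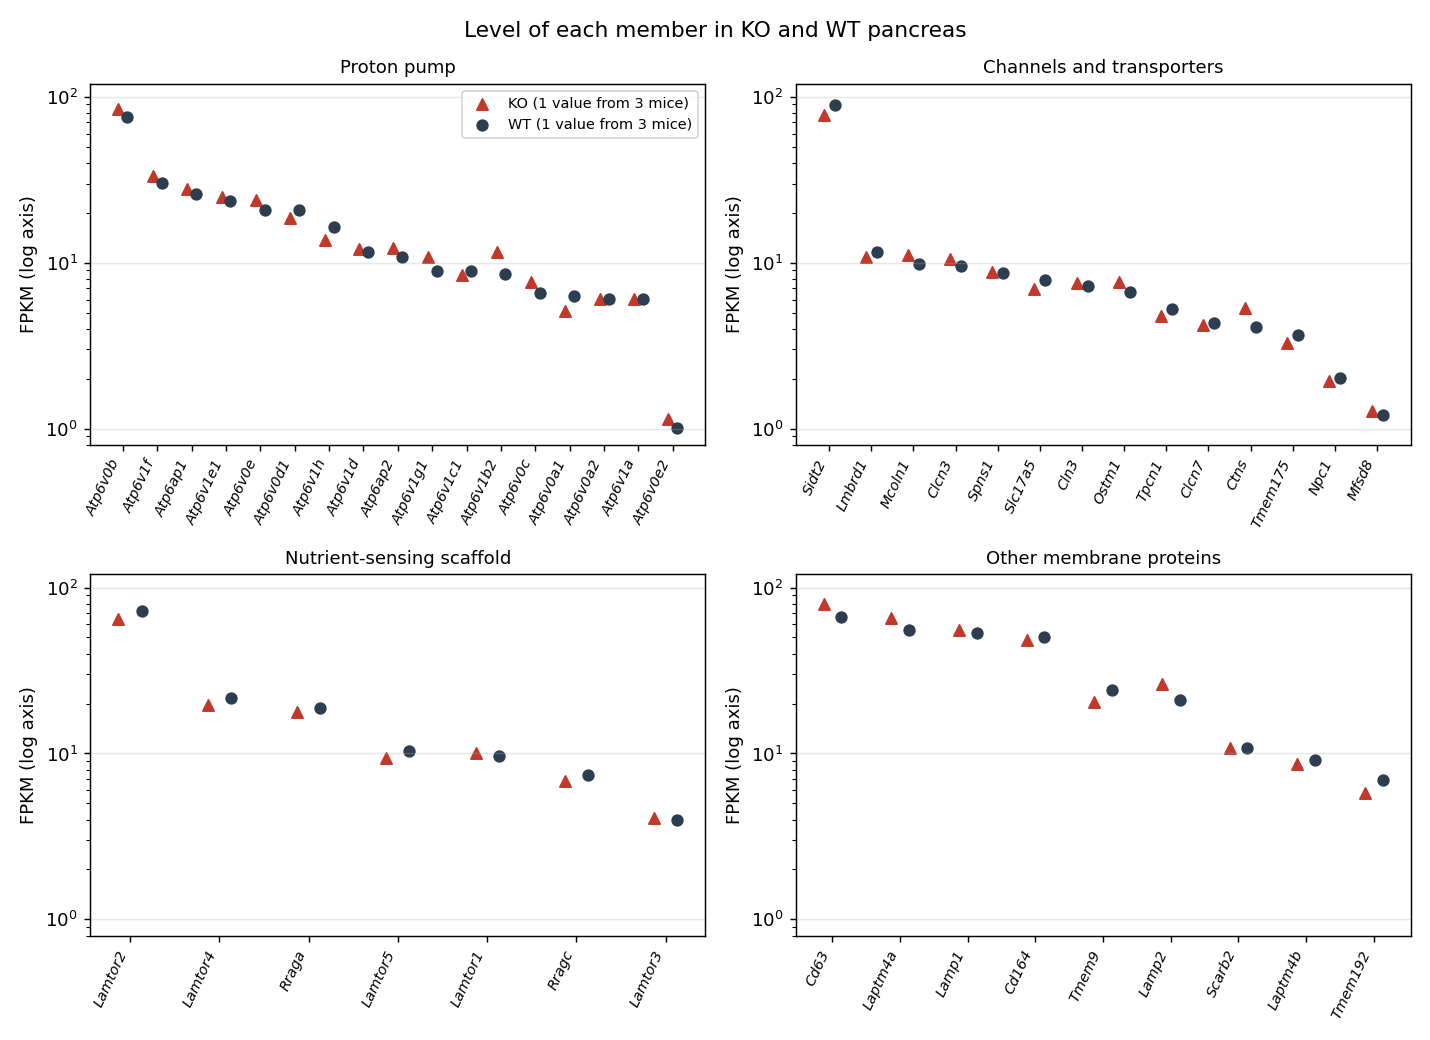
FPKM of each member (log axis) in KO (triangles) and WT (circles), 1 value per genotype combining 3 mice, in 4 panels by role and ordered by the WT level. The symbols of each gene lie close together compared with the spread between genes. For the called gene Atp6v1b2 the KO value was 11.6 FPKM and the WT value 8.59 FPKM.

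Of the channels and transporters of the membrane, 0 were called by Cuffdiff (1, Ostm1, at an unadjusted p under 0.05). Over all tested genes these shares were 7.54% and 17.5%. The 14 tested genes split evenly, with 7 ratios above 0 and 7 below, and had a median of -0.02. The sign of this median depends on the genes kept, since it was 0.05 among the 10 genes with at least 5 FPKM in either genotype and 0.02 after centring on the median of all tested genes. The channel genes Mcoln1 and Tpcn1 had small ratios of opposite sign, without a call. Mcoln1, the main lysosomal calcium release channel of the TRPML family, had 11.1 FPKM in KO and 9.84 FPKM in WT (log2 ratio 0.17, q = 0.843 in the authors' deposited table). Tpcn1, an endolysosomal channel, had 4.77 FPKM in KO and 5.23 FPKM in WT (log2 ratio -0.13, q = 0.614 in the same deposited table). Tmem175, a potassium and proton channel of lysosomes, had 3.30 FPKM in KO and 3.68 FPKM in WT. That level is also uncertain, because 52.2% of the 50-base windows of Tmem175 occur in transcripts of the neighbouring gene Dgkq, with which it shares its deposited interval.

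Chloride and proton exchangers form the counter-ion path of the pump. Clcn7, the lysosomal exchanger, had 4.20 FPKM in KO and 4.36 FPKM in WT, while Ostm1, its obligate partner subunit, had 7.70 FPKM in KO and 6.64 FPKM in WT. Ostm1 passed an unadjusted threshold only (log2 ratio 0.21, p = 0.0478 and q = 0.278 in the authors' deposited table). Clcn3, an exchanger of endosomes, had 10.5 FPKM in KO and 9.61 FPKM in WT. Ctns, the cystine exporter, had 5.32 FPKM in KO and 4.09 FPKM in WT. Its log2 ratio of 0.38 was the next highest of the members after Atp6v1b2, without a call (p = 0.0512 and q = 0.289 in the authors' deposited table).

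The remaining transporters had ratios between -0.21 and 0.07 on the log2 scale. Sidt2, a lysosomal membrane protein of the SID1 family, was by far the most abundant of the group at 77.5 FPKM in KO and 89.4 FPKM in WT (log2 ratio -0.21, q = 0.884 in the authors' deposited table), with 11.6% of its windows shared with an antisense gene. Lmbrd1, needed for cobalamin export, had 10.9 FPKM in KO and 11.6 FPKM in WT. Spns1, a lysophospholipid exporter, had 8.75 FPKM in KO and 8.62 FPKM in WT. The sialic acid exporter gene Slc17a5 had 6.91 FPKM in KO and 7.85 FPKM in WT. Cln3, the gene mutated in juvenile Batten disease, had 7.59 FPKM in KO and 7.24 FPKM in WT. Of its windows 12.5% are shared with Apobr, which lies on the same deposited interval. The lowest levels were those of Npc1, the cholesterol exporter (1.95 FPKM in KO and 2.03 FPKM in WT), and Mfsd8, another gene of the ceroid lipofuscinoses (1.27 FPKM in KO and 1.22 FPKM in WT).

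The nutrient-sensing scaffold had the narrowest spread of the 4 roles. Its 7 tested genes had log2 ratios from -0.16 to 0.07, with 5 below 0 and 2 above, and a median of -0.12. They had 0 calls (0 also at an unadjusted p under 0.05), against 7.54% and 17.5% of all tested genes. Their lowest q was 0.517 in the authors' deposited table. Lamtor1, the lipid-anchored subunit that wraps the other Ragulator proteins, had 10.1 FPKM in KO and 9.66 FPKM in WT. Lamtor2 was the most abundant subunit gene, with 64.6 FPKM in KO and 72.1 FPKM in WT, while Lamtor3, whose protein pairs with that of Lamtor2, had 4.10 FPKM in KO and 3.996 FPKM in WT. The other pair was Lamtor4 (19.5 FPKM in KO and 21.5 FPKM in WT) and Lamtor5 (9.43 FPKM in KO and 10.3 FPKM in WT). Lamtor1, Lamtor3 and Lamtor5 each share over 10% of their windows with other genes, mostly processed pseudogenes, so their levels beside Lamtor2 are uncertain. The GTPase genes had 17.8 FPKM in KO and 18.8 FPKM in WT for Rraga, and 6.86 FPKM in KO and 7.43 FPKM in WT for Rragc.

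Of the 9 other membrane proteins, 0 were called by Cuffdiff, against 7.54% of all tested genes. At an unadjusted p under 0.05, 3 had higher and 1 had lower values in KO. That was 44.4% of the group, against 17.5% of all tested genes. Lamp2, a major lysosomal glycoprotein that also serves chaperone-mediated autophagy, had 26.04 FPKM in KO and 20.9 FPKM in WT and just missed a call (log2 ratio 0.31, p = 0.0048 and q = 0.0599 in the authors' deposited table). Its paralog Lamp1 had 55.4 FPKM in KO and 53.3 FPKM in WT (log2 ratio 0.06, q = 0.874 in the authors' deposited table). Cd63, a tetraspanin of late endosomes and secretory granules, had 79.9 FPKM in KO and 66.8 FPKM in WT (log2 ratio 0.26, q = 0.107 in the authors' deposited table). Of its windows 36.5% are shared with the pseudogene Cd63-ps. Laptm4a, a transmembrane protein of late endosomes, had 65.8 FPKM in KO and 55.8 FPKM in WT (log2 ratio 0.24, q = 0.128 in the authors' deposited table).

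Lower values in the same group were those of Tmem9, a membrane protein linked to the pump and to chloride exchangers, with 20.4 FPKM in KO and 24.2 FPKM in WT (log2 ratio -0.25, p = 0.0398 and q = 0.247 in the authors' deposited table). Tmem192, a lysosomal membrane protein widely used as a tag for isolating lysosomes, had 5.78 FPKM in KO and 6.93 FPKM in WT (log2 ratio -0.26, q = 0.339 in the authors' deposited table). Scarb2, which carries glucocerebrosidase to lysosomes, had 10.8 FPKM in both genotypes. Cd164, the sialomucin endolyn, had 48.5 FPKM in KO and 50.0 FPKM in WT, and Laptm4b had 8.65 FPKM in KO and 9.10 FPKM in WT. The median of the group was -0.01. With 4 ratios above 0 and 5 below, and 5 above and 4 below after centring on all tested genes, the group had no common sign.

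Across the roles, 7 of the 47 members (14.9%) had an unadjusted p under 0.05 in the authors' deposited table, against 17.5% of all tested genes. Of these, 6 were higher in KO (Atp6v1b2, Atp6v1g1, Ostm1, Lamp2, Cd63 and Laptm4a) and 1 was lower (Tmem9). Over all tested genes the shares were 8.36% higher and 9.11% lower. At q under 0.10 the authors' values give 2 members, Atp6v1b2 and Lamp2, against 9.75% of all tested genes. Macrophage, islet and fat cell markers were higher in the same KO group, with median log2 ratios of 0.73, 0.65 and 1.19.

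**Figure D3:**
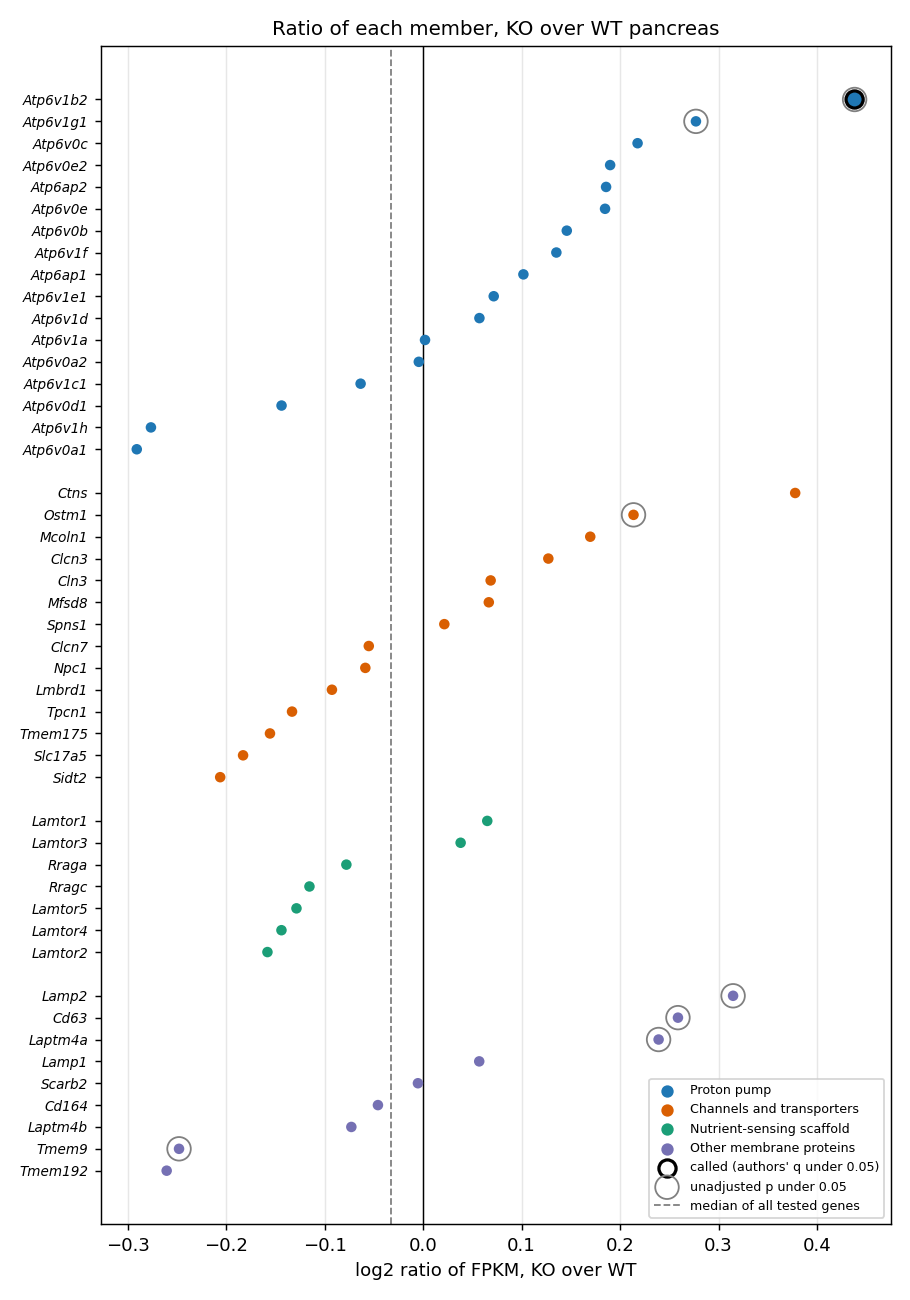
Log2 ratio of FPKM, KO over WT, for each of the 47 members, grouped by role and ordered within it. The black-ringed point is the called gene Atp6v1b2, thin grey rings mark the 7 genes with an unadjusted p under 0.05, and the dashed line is the median of all tested genes (-0.03); the pump has 12 of 17 points above 0 and the scaffold 5 of 7 below.

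The members whose RefSeq window holds TCACGTGA had values close to 0. For the 7 tested genes the log2 ratios ran from -0.14 (Atp6v0d1) to 0.18 (Atp6v0e), with a median of 0.00. They had 0 calls by Cuffdiff (0 also at an unadjusted p under 0.05), against 7.54% and 17.5% of all tested genes. The 31 tested members with a window but without these letters had a median of 0.06. Among the factors known to bind this motif, Mitf had 5.27 FPKM in KO and 0.619 FPKM in WT and was called (q = 0.00152 in the authors' deposited table). Tfeb had 3.10 FPKM in KO and 5.21 FPKM in WT without a call (log2 ratio -0.75, q = 0.0857 in the authors' deposited table), and Tfe3 had 3.70 FPKM in KO and 4.49 FPKM in WT (q = 0.659 in the same deposited table). Of the folliculin complex, Flcn had 6.18 FPKM in KO and 5.88 FPKM in WT.

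Genes that work with the members were examined as lists of their own. Of 3 further pump subunit genes, 0 were called by Cuffdiff (1, Rnasek, at an unadjusted p under 0.05). Rnasek, which encodes a small pump-associated membrane protein, had 68.3 FPKM in KO and 84.4 FPKM in WT (log2 ratio -0.31, q = 0.0874 in the authors' deposited table). Rnasek shares its deposited interval with another row, where reads could be divided. Of 10 assembly and regulatory genes of the pump, such as Vma21 and Dmxl2, 0 were called by Cuffdiff (1, Ncoa7, at an unadjusted p under 0.05), with a median of -0.04. Of 13 genes that position lysosomes along microtubules (BORC, Arl8 and their effectors), 0 were called by Cuffdiff (1, Bloc1s2, at an unadjusted p under 0.05). Their median was -0.03. Beside these lists, 7.54% of all tested genes were called and 17.5% had an unadjusted p under 0.05.

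Of 34 other lysosomal and vesicle membrane genes, 1 was called higher and 1 lower (5.88% called, against 7.54% of all tested genes), and the median was 0.05. At an unadjusted p under 0.05 the share was 17.6%, against 17.5% of all tested genes. The called genes were Slc30a2, a zinc transporter of secretory vesicles, which fell to 4.71 FPKM in KO, against 9.33 FPKM in WT, and Cd68, a lysosomal glycoprotein of macrophages, which rose to 3.67 FPKM in KO, against 2.25 FPKM in WT. Cd68 and Laptm5, which are also in the macrophage list, and the phagosomal metal transporter gene Slc11a1 had log2 ratios of 0.70, 0.73 and 0.80. They stood beside macrophage markers whose median was 0.73 in the same KO group.

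Of 23 genes of mTORC1 and its amino acid sensing complexes, which act on or with the scaffold, 1 was called higher and 2 lower (13.04% called, against 7.54% of all tested genes), with a median of -0.06. At an unadjusted p under 0.05 the share was also 13.04%, against 17.5% of all tested genes. Sesn1, a sestrin that restrains mTORC1 when leucine is low, rose to 18.6 FPKM in KO, against 13.1 FPKM in WT (log2 ratio 0.50, q = 0.00152 in the authors' deposited table). Its paralog Sesn2, which is also induced by stress, fell to 2.21 FPKM in KO, against 3.39 FPKM in WT (log2 ratio -0.62, q = 0.00152 in the authors' deposited table). Itfg2, a subunit of the KICSTOR complex that anchors the inhibitor GATOR1 to lysosomes, fell to 2.40 FPKM in KO, against 3.24 FPKM in WT (log2 ratio -0.43, q = 0.0447 in the authors' deposited table). The kinase gene Mtor had 4.04 FPKM in KO and 4.79 FPKM in WT, and Rptor, its adaptor, 3.45 FPKM in KO and 4.45 FPKM in WT, both without a call.

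**Figure D4:**
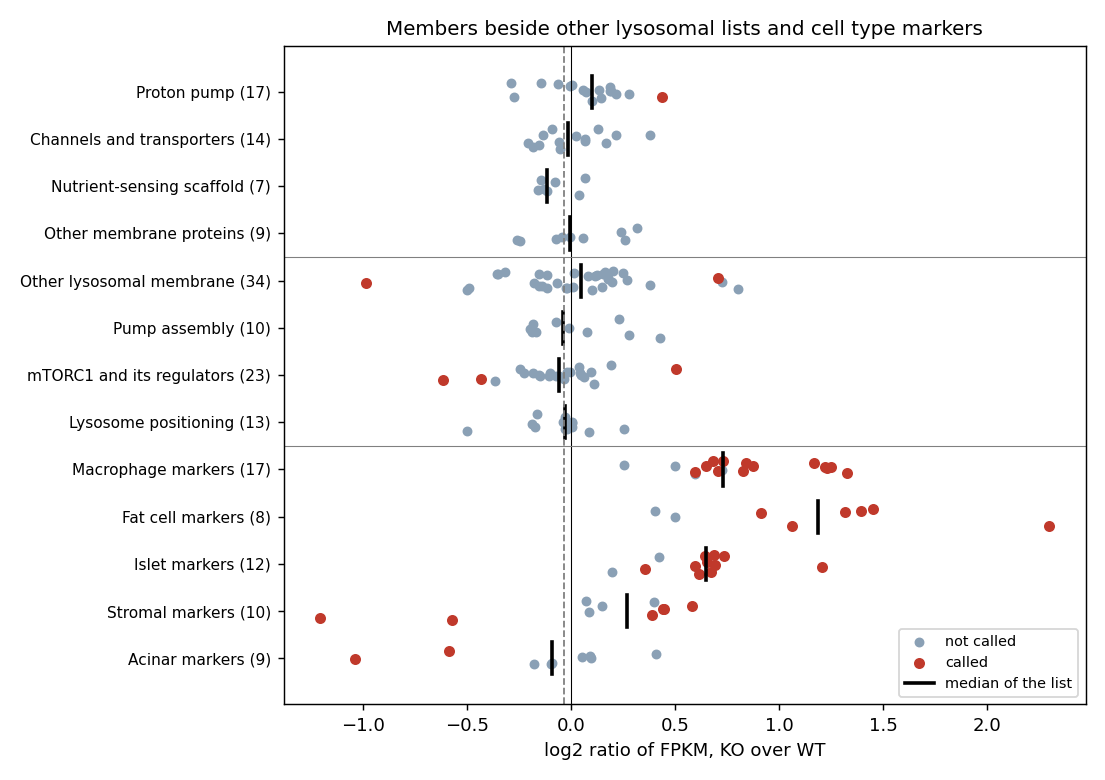
Log2 ratio of FPKM, KO over WT, for the members by role (top), for other genes of the lysosomal membrane, pump assembly, mTORC1 and lysosome positioning (middle) and for cell type markers (bottom), with the number of tested genes in parentheses; red points were called, black bars are medians and the dashed line is the median of all tested genes. The 4 role groups have medians from -0.12 to 0.10, while macrophage, fat cell and islet markers have medians of 0.73, 1.19 and 0.65.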

How the data were processed

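Pancreas RNA of 3 KO and 3 WT mice was sequenced as single reads of 50 bases, per the labels' protocols. Per the submitters' processing notes, the authors used STAR 2.5.1b, Cufflinks 2.2.1, Cuffdiff and build GRCm38. The deposited table holds 1 FPKM value per genotype, the Cuffdiff test statistic and a log2 fold change of WT over KO (both handled as a score), and p-values and q-values; of single samples it has 0 columns. Which annotation, strand setting, scaling and rule for multiply mapped reads were used is not given in the sources used here. Every row has at least 1.00 FPKM in a genotype, so lower genes were not analysed here.

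The planned test on values per library could not be made, and the authors' q over the whole table (threshold 0.05) gave the calls. Some cells of the deposited log2 fold change hold spreadsheet errors. Ratios were therefore recomputed from the FPKM values as KO over WT, with no pseudocount. The labels number the mice of each group 1 to 3, and the p-values are those of the authors' test. Medians of lists are descriptions. All listed members were named, as were called genes of the accompanying pathway lists, while marker lists of cell types are given by counts and sums. The called markers Ptf1a and Pnlip, and Tcirg1, Rnasek, Mtor and other genes without a call, were named after their values were seen. Members and lists were chosen with earlier results of these data known. Interval starts were shifted to count from 1; 7 members share their interval with another row (Atp6v0a1, Atp6v0b, Npc1, Cln3, Tmem175, Sidt2 and Lamtor1), where reads could be divided. Windows of 50 bases were compared exactly, on both strands, with all transcripts of GENCODE release M21. The adjustment of p-values was checked against SciPy on simulated p-values. The check of the medians, a shift planted in permuted ratios, could not fail and shows nothing about them. Python 3.11.15 with pandas 2.3.3, SciPy 1.17.1 and matplotlib 3.10.9 was used.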

Additional observations from a re-analysis of the deposited data

How the results depend on the processing

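The medians of all members and of the pump, scaffold and other membrane protein genes moved by less than 0.05 on the log2 scale with a pseudocount of 0.5, a minimum of 5 FPKM, shared intervals left out, centring on all tested genes, the deposited fold change, or, chosen after seeing the data, members with over 10% shared windows left out. Centring subtracts the same -0.033 from every median, and the deposited fold change is computed from the same FPKM values. These settings could not move a median by 0.05 or more. The median of the other membrane proteins (-0.01) had the opposite sign after centring (0.03). That of all members (0.02) was -0.0016 without the genes with shared windows. The channel and transporter median of -0.02 became 0.0451 with the 5 FPKM minimum and 0.0442 without shared intervals, where fewer genes entered. The 1 call held when the p-values were adjusted again over all tested genes by the Benjamini-Hochberg method; at q under 0.10 there were 2 calls, and at an unadjusted p under 0.05 there were 7. The renewed adjustment changed the call of no member. An equal pseudocount in both genotypes cannot change the sign of a ratio and does not enter the calls, so it tests neither. No paired analysis was possible because the table has no columns of single samples, and for the same reason no replicate could be left out. The spread between mice and the depth cannot be seen in these values.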
